A study of Mus musculus with 9 samples.

Results

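Calprotectin and 4 further genes made by neutrophils and other myeloid cells were followed in whole mouse lung after injurious mechanical ventilation. The 6 genes, S100a8, S100a9, Retnlg, Pglyrp1, Chil1 and Trem1, were chosen by name, with earlier results of these data known. They make up 6 of the 27203 genes, and 12 of the 60108 transcript rows, of the deposited table. Lungs of male C57BL/6 mice aged 6 to 8 weeks were used, 1 mouse per library and 3 mice per group, and groups were taken from the sample records. Control mice had been intubated but not ventilated. Mice with ventilator-induced lung injury (VILI) had been ventilated for 4 hours with tidal volumes of 20 ml/kg and were sampled at once (VILI 0 h) or 6 hours later (VILI 6 h). Control mice therefore shared the intubation but not the ventilation, and how long after intubation those sequenced were sampled is not given in the sources used here. Values are FPKM, fragment counts scaled to transcript length and to library size, so levels of different genes can be compared per length.

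S100A8 and S100A9 are small calcium-binding proteins that pair to form calprotectin, an abundant protein of the neutrophil cytosol that withholds zinc and manganese from microbes. When neutrophils die or are activated it is released and acts as an alarm signal on Toll-like receptor 4 and on RAGE, the product of Ager, which alveolar type 1 cells make in large amounts. Retnlg encodes a resistin-like protein of mouse neutrophils and bone marrow. Pglyrp1 encodes a bactericidal granule protein that binds bacterial peptidoglycan and, in complex with peptidoglycan, is a ligand of TREM1. Trem1 encodes that receptor, which sits on neutrophils and monocytes, signals through the adaptor DAP12 (Tyrobp) and amplifies inflammatory responses. Chil1 encodes chitinase-3-like 1 (also called BRP-39 or YKL-40), a chitin-binding protein without chitinase activity that neutrophils store in granules and that macrophages and lung epithelium also make.

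S100a8 (ENSMUSG00000056054) lies on the plus strand of chromosome 3 at chr3:90668978-90670035 and S100a9 (ENSMUSG00000056071) on the minus strand at chr3:90692632-90695721 (GRCm38, GENCODE M21). The distance between them is 22596 bp, with 0 annotated genes in between. Retnlg (ENSMUSG00000022651) lies at chr16:48872621-48874496, Pglyrp1 (ENSMUSG00000030413) at chr7:18871331-18890459, Chil1 (ENSMUSG00000064246) at chr1:134182176-134190181 and Trem1 (ENSMUSG00000042265) at chr17:48232768-48246924, all on the plus strand. The values are sums over the transcript rows of each gene.

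The promoters of S100a8, S100a9 and Retnlg, the 3 genes called higher in VILI at an adjusted p under 0.05, are printed here. That of Chil1, the gene with the highest level in control lung, is printed beside them. Each window runs from 250 bases before to 50 bases after the annotated RefSeq start (GRCm38.p6), 5′ to 3′ on the strand of the gene, at chr3:90668821-90669120 (plus), chr3:90695672-90695971 (minus), chr16:48872358-48872657 (plus) and chr1:134181906-134182205 (plus). Capitals mark matches on either strand to TATAAA (the TATA box), TNNNGCAAT (a partial form of the motif of C/EBP factors, which drive granulocyte genes) or GAGGAAGT (a form of the motif of PU.1, a myeloid factor).
S100a8: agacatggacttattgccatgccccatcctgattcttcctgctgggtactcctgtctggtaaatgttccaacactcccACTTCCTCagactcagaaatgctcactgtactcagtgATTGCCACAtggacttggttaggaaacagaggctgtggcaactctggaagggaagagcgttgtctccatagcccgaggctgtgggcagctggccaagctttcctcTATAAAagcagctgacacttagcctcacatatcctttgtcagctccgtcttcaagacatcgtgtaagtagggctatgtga
S100a9: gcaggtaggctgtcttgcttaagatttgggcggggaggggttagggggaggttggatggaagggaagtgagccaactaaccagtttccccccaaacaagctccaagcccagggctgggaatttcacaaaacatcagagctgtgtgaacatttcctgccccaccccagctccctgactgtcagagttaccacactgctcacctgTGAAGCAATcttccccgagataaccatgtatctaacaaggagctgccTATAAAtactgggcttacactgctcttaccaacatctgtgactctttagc
Retnlg: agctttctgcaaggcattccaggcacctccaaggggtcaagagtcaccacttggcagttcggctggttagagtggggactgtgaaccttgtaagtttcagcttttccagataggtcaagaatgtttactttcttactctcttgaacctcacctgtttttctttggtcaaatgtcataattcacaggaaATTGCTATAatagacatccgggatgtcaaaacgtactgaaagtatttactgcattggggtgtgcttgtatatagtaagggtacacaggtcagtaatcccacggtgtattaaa
Chil1: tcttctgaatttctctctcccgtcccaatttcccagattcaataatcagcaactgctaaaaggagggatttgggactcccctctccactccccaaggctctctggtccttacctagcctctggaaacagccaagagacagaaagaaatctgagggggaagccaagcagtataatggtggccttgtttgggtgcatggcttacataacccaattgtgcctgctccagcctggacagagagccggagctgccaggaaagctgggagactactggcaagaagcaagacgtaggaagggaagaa
The S100a8 window held all 3 motifs. TATAAA stood at -30 to -25 on the strand of the gene, counting the annotated start base as 0, and the other matches lay on the opposite strand at -135 to -127 (TNNNGCAAT) and -172 to -165 (GAGGAAGT). In S100a9, TNNNGCAAT stood at -47 to -39, and TATAAA began at the annotated start itself, at 0 to 5. Retnlg held TNNNGCAAT at -62 to -54 on the opposite strand and no TATAAA. The windows of Chil1, Pglyrp1 and Trem1 held none of these motifs. Pglyrp1 and Trem1 were also higher in every VILI library than in every control. Among all 32851 mouse promoter windows of this length, 13.6% held TATAAA, 7.0% TNNNGCAAT and 3.2% GAGGAAGT, and the matches overlapped no other match. A match says only that the letters are present.

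The VILI 6 h libraries were unlike each other, and 2 of them stood apart. VILI 6 h replicate 1 correlated with the other VILI 6 h libraries at a Spearman rho of 0.963 and 0.944 over genes, against 0.973 between the other two, at least 0.978 within VILI 0 h and at least 0.987 within control. It had the lowest value of its group for all 6 erythroid, all 5 platelet and all 5 lymphocyte genes listed, and its erythroid genes summed to 489 FPKM, against 3226 to 5420.3 FPKM in the other 8 libraries. VILI 6 h replicate 3 was the farthest from the other groups, at a rho of about 0.942 with the control libraries and 0.957 to 0.962 with VILI 0 h, while replicate 1 was at 0.977 to 0.979 with control. The log2 fold changes of the 6 genes in VILI 6 h vs control are therefore given with all libraries and without either of these, while values of the lists and the ratios to Csf3r rest on all libraries. Library sums of FPKM ran from 366360 to 388459. In bulk lung, more cells of a type and more RNA per cell cannot be told apart.

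Calprotectin transcripts were low in control lung and high in every VILI lung. S100a8 measured 15.0, 9.94 and 12.5 FPKM in control, 161, 280 and 203 FPKM in VILI 0 h and 136, 199 and 545 FPKM in VILI 6 h. Every VILI library lay above every control library, and within VILI 6 h replicate 3 was 4.02 times replicate 1. The group means were 12.5 ± 2.54 FPKM in control, 215 ± 60.2 FPKM in VILI 0 h and 293 ± 220 FPKM in VILI 6 h (SD, n = 3). S100a8 rose by a log2 fold change of 4.08 ± 0.44 (SE) in VILI 0 h vs control, which is 16.9-fold (limma on log2(FPKM + 0.1), adjusted p = 0.0204 over 19378 genes). It rose by 4.30 ± 0.44 in VILI 6 h vs control (limma, adjusted p = 0.0136). These comparisons share the control libraries.

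S100a9, the partner chain, was the higher of the pair in all 9 libraries. It measured 26.6, 23.4 and 29.3 FPKM in control, 269, 490.3 and 412 FPKM in VILI 0 h and 238, 554 and 1099.9 FPKM in VILI 6 h. The order of the libraries was close to that of S100a8: replicate 1 was lowest and replicate 2 highest in VILI 0 h, and replicate 1 was lowest and replicate 3 highest in VILI 6 h. S100a9 rose by a log2 of 3.84 ± 0.46 in VILI 0 h vs control (limma, adjusted p = 0.0247) and by 4.31 ± 0.46 in VILI 6 h vs control (limma, adjusted p = 0.0136). S100a9 was summed from 2 transcript rows, of which the first held 93.6% of its FPKM. The second row reached 2.40 FPKM at most in control and 24.9, 48.6 and 73.2 FPKM in VILI 6 h, while in VILI 0 h it was 0.00804, 5.91 and 45.8 FPKM, so it was near 0 in a library with 269 FPKM of the gene.

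S100a9 was 2.16 ± 0.335 times S100a8 in control, 1.82 ± 0.189 times in VILI 0 h and 2.19 ± 0.535 times in VILI 6 h (mean ± SD of the ratio of FPKM + 0.1, n = 3). The groups overlapped in each comparison, with a two-sided exact permutation p of 0.2 for VILI 0 h vs control, 1 for VILI 6 h vs control and 0.4 between the VILI groups, in a design that cannot go below 0.1. The difference of log2 ratios was -0.23 in VILI 0 h vs control and -0.37 without control replicate 1. Of 14107 genes with a mean of at least 1 FPKM, S100a9 was the one whose centred log2 profile over the 9 libraries lay closest to that of S100a8, at a root mean square difference of 0.236, and S100a8 was in turn the closest to S100a9. Next to S100a8 came Cxcr2 (0.437), the neutrophil receptor for CXC chemokines, and Clec4e (0.583), a receptor for damage and mycobacterial lipids; next to S100a9 came Cxcr2 (0.397) and Ly6g (0.477), the surface marker of mouse neutrophils.

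**Figure D1:**
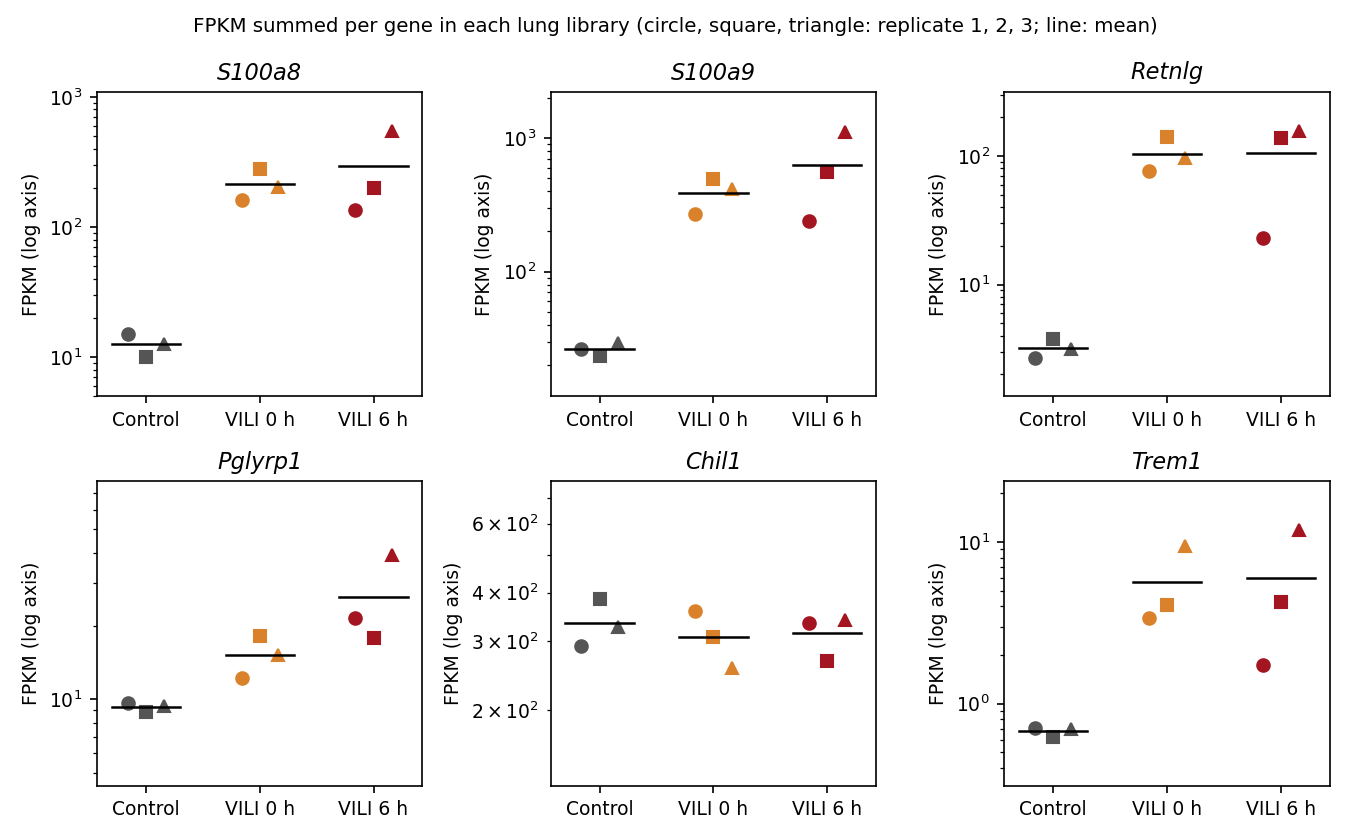
FPKM of each gene (log axis, a separate scale per panel) in each of the 9 libraries, by group, with circle, square and triangle for replicates 1, 2 and 3 and a line at the group mean. S100a8, S100a9, Retnlg, Pglyrp1 and Trem1 are higher in all 6 VILI libraries than in all 3 control libraries, whereas the Chil1 groups overlap between 257 and 385 FPKM.

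Retnlg had the largest log2 fold changes vs control of the 6 genes with all libraries. In VILI 6 h vs control without VILI 6 h replicate 2, however, it stood at 4.201, below S100a8 at 4.455 and S100a9 at 4.277. Its level was 2.70, 3.79 and 3.17 FPKM in control, 76.5, 141 and 96.6 FPKM in VILI 0 h and 23.1, 139 and 157 FPKM in VILI 6 h. All VILI libraries exceeded the controls, and VILI 6 h replicate 1 was below all 3 libraries of VILI 0 h. Retnlg rose by a log2 of 4.95 ± 0.62 in VILI 0 h vs control (limma, adjusted p = 0.0284), rank 3 of 19378 genes by fold change, and by 4.60 ± 0.62 in VILI 6 h vs control (limma, adjusted p = 0.0217), rank 5. Against S100a8 in the same library, Retnlg was higher in VILI 0 h than in control by a log2 of 0.87, with no overlap of the groups (exact permutation p = 0.1, the smallest that 3 against 3 libraries allow). In VILI 6 h vs control that difference of log2 ratios was 0.30 and the groups overlapped (exact permutation p = 0.7). It rested on single libraries, at 0.76 without VILI 6 h replicate 1 and -0.25 without replicate 2. The closest profiles to Retnlg were those of Mmp8 (0.496), the neutrophil collagenase, S100a9 (0.598) and Ly6g (0.651).

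Pglyrp1 and Trem1, ligand and receptor, were higher in every VILI library than in every control, but neither passed the adjusted threshold in the fit of all libraries. In VILI 0 h vs control both passed with only the 6 libraries compared (limma, adjusted p = 0.0262 and 0.0056), where 779 of 19200 genes were called higher. Trem1 also passed there without VILI 6 h replicate 3 (limma, adjusted p = 0.0311), with 126 of 19345 genes called higher. Pglyrp1 was at 9.63, 8.83 and 9.38 FPKM in control, 12.3, 18.1 and 15.2 FPKM in VILI 0 h and 21.5, 17.8 and 39.3 FPKM in VILI 6 h. The control libraries were within 1 FPKM of each other, and the VILI groups overlapped at the lower end of VILI 6 h. Its log2 fold change was 0.69 ± 0.26 in VILI 0 h vs control (limma, adjusted p = 0.244) and 1.40 ± 0.26 in VILI 6 h vs control (limma, adjusted p = 0.0527), with an unadjusted P under 0.05 in both. Unlike the calprotectin genes, Pglyrp1 lay closest to Fcer1g (0.141), the shared signalling chain of Fc receptors in myeloid cells, Tgfbi (0.185), a matrix protein made by macrophages, and Slc16a6 (0.187), a member of the monocarboxylate transporter family; these small differences go with a profile that spans only 2.14 log2 units, against 5.76 for S100a8.

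Trem1 was the least abundant of the 6 genes in all 9 libraries. It measured 0.707, 0.623 and 0.699 FPKM in control, 3.39, 4.07 and 9.41 FPKM in VILI 0 h and 1.73, 4.26 and 11.9 FPKM in VILI 6 h. The VILI libraries spread widely, with replicate 3 highest at both times and 6.86 times replicate 1 in VILI 6 h. Its log2 fold change was 2.74 ± 0.60 in VILI 0 h vs control (limma, adjusted p = 0.0865) and 2.56 ± 0.60 in VILI 6 h vs control (limma, adjusted p = 0.0849), with an unadjusted P under 0.05 in both. The second of its 2 rows held 13.8% of the FPKM and was at most 0.0240 FPKM in control and 0.0705 to 1.25 FPKM in VILI. Profiles near that of Trem1 included those of Osm (0.311), the cytokine oncostatin M, and Rdh12 (0.373), a retinol dehydrogenase.

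Chil1 did not follow the other genes. It was the most abundant of the 6 in control lung, at 292, 385 and 327 FPKM, and measured 359, 309 and 257 FPKM in VILI 0 h and 335, 268 and 340.4 FPKM in VILI 6 h. The 3 groups overlapped throughout. Its log2 fold change was -0.12 in VILI 0 h vs control (limma, adjusted p = 0.744, 95% interval -0.48 to 0.23) and -0.09 in VILI 6 h vs control (limma, adjusted p = 0.768, 95% interval -0.45 to 0.27), and with libraries centred on their median the VILI 6 h value became 0.04. Without VILI 6 h replicate 1 the VILI 6 h value was -0.14, without replicate 2 it was 0.02 and without replicate 3 it was -0.15. The interval at each time excludes a change of the size of that of S100a8. These values go against the label of neutrophil marker for Chil1 in whole lung, where it did not rise in VILI. In control libraries, Ly6g was listed at 0, 0.0532 and 0 FPKM while Chil1 was at 292 FPKM or more. That contrast alone does not set Chil1 apart, since S100a9 was at 23.4 FPKM or more in the same libraries. The 3 profiles nearest to Chil1, those of Sec22a (0.0927), Ano10 (0.0957) and Lactb (0.107), are not neutrophil markers of the list, and its own profile spanned only 0.59 log2 units.

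Within Chil1, the split between transcript rows varied among libraries more than the total did. The first of 5 rows held 90.7% of the FPKM over all libraries. The second was at 0.334, 0.405 and 9.82 FPKM in control, at 0.413, 0.297 and 33.4 FPKM in VILI 0 h and at 86.7, 0.504 and 91.0 FPKM in VILI 6 h. It was thus above 30 FPKM in 3 VILI libraries and below 1 FPKM in the other 3. Its group means were 3.52 FPKM in control, 11.4 FPKM in VILI 0 h and 59.4 FPKM in VILI 6 h, and both VILI groups overlapped control. Only the first row would give a log2 fold change of -0.36 in VILI 6 h vs control (limma, adjusted p = 0.325).

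**Figure D2:**
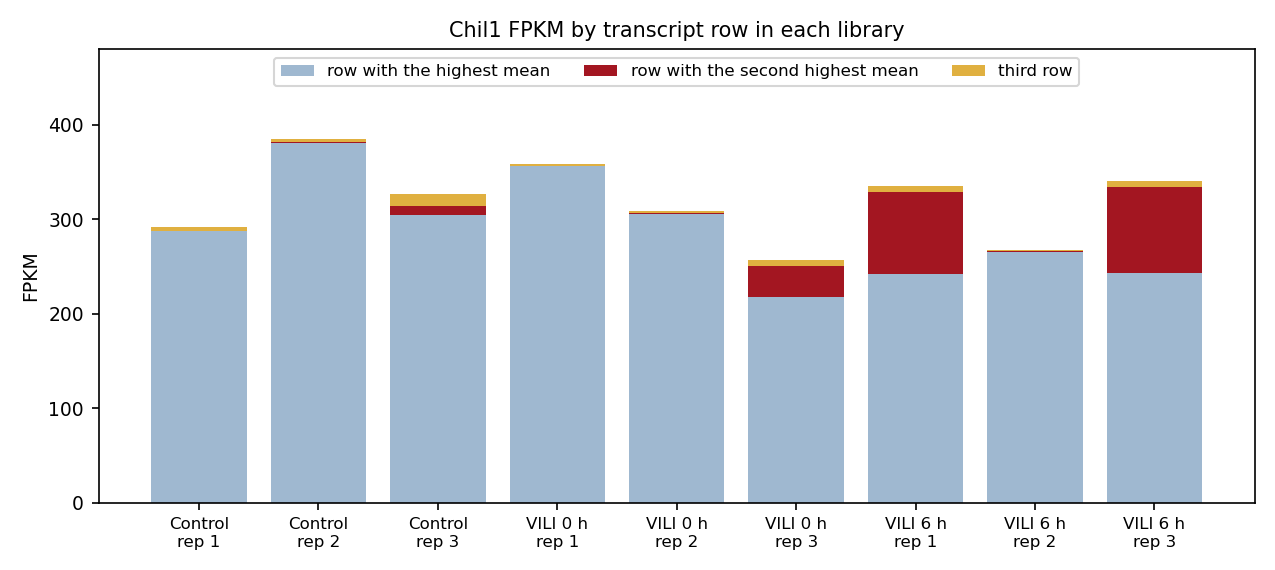
Chil1 FPKM (linear axis from 0) in each of the 9 libraries, stacked by transcript row, for the 3 rows with the highest means. The totals stay between 257 and 385 FPKM, while the row with the next highest mean (dark red) reaches 33.4, 86.7 and 91.0 FPKM in 3 VILI libraries and 9.82 FPKM in control replicate 3.

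The make-up of the group of genes shifted with these changes. Chil1 held 84.2% to 89.2% of the summed FPKM of the 6 genes in control, 24.9% to 40.7% in VILI 0 h and 15.5% to 44.4% in VILI 6 h. S100a8 and S100a9 together held 7.72% to 12.0% in control, 48.8% to 62.0% in VILI 0 h and 49.5% to 75.0% in VILI 6 h. In all 3 controls the order from high to low was Chil1, S100a9, S100a8, Pglyrp1, Retnlg and Trem1. In all 6 VILI libraries Retnlg stood above Pglyrp1, and S100a9 was the highest gene in 4 of them, the exceptions being replicate 1 of each VILI group, where Chil1 was highest.

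In VILI 0 h vs control, 3 of the 6 genes were called higher at an adjusted p under 0.05, against 0.206% of the 19378 genes tested (40 genes), and 5 did not overlap control, against 12.0% of genes. The median log2 fold change of the 6 was 3.29, and that of all genes was -0.07. In VILI 6 h vs control, 3 of the 6 were called higher against 0.449% of genes (87 genes), and 5 did not overlap control against 9.64%. The median was 3.43, and that of all genes -0.09. At an unadjusted P under 0.05, 5 of 6 were higher in each comparison, against 6.81% and 8.17% of genes. The 6 genes were chosen with earlier results of these data known, so these shares describe them and do not test them. Centring every library on its median moved all log2 fold changes up by 0.11 and 0.13, far less than the changes of the genes called.

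The 3 calls depended on single libraries and on settings of the fit. When any 1 control library was left out, S100a8, S100a9 and Retnlg kept log2 fold changes of at least 3.76 in VILI 0 h and 4.15 in VILI 6 h, but none had an adjusted p under 0.05 (limma, up to 0.191 and 0.144, both without control replicate 3). Leaving out VILI 0 h replicate 2 or 3 also ended the 3 calls in VILI 0 h vs control, with limma adjusted p up to 0.0773 and 0.1105, and leaving out VILI 6 h replicate 2 or 3 ended that of Retnlg in VILI 6 h vs control (limma, adjusted p = 0.061 and 0.0516). With every library kept and no filter on low values, the VILI 0 h calls of S100a8, S100a9 and Retnlg ended (limma, adjusted p = 0.0544, 0.0544 and 0.0582). Those of S100a9 and Retnlg also ended when limma was run without a trend (adjusted p = 0.0547 and 0.0555) or on the highest row of each gene (adjusted p = 0.0771 and 0.0816). The VILI 6 h call of Retnlg ended without a trend, with only the 6 libraries compared and with the highest row (limma, adjusted p = 0.0524, 0.0585 and 0.0514).

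Without VILI 6 h replicate 1, all genes but Chil1 were called in VILI 6 h vs control. The log2 fold changes were then 4.73 for S100a8 (limma, adjusted p = 3.26e-04), 4.88 for S100a9 (1.67e-04), 5.49 for Retnlg (3.08e-05), 1.502 for Pglyrp1 (0.00947) and 3.22 for Trem1 (0.0036), and 8.17% of genes were called higher. In VILI 0 h vs control, which shares the estimate of the spread, Trem1 was called beside S100a8, S100a9 and Retnlg (limma, adjusted p = 0.00975) and Pglyrp1 was not (limma, adjusted p = 0.155), with 3.48% of genes called higher. Without VILI 6 h replicate 3, the log2 fold changes in VILI 6 h vs control were 3.73 for S100a8 (limma, adjusted p = 0.00599), 3.78 for S100a9 (0.0123), 4.11 for Retnlg (0.0516), 1.07 for Pglyrp1 (0.0541) and 1.865 for Trem1 (0.156), and a pseudocount of 1 gave 1.764 for Trem1, and 1.874 in VILI 0 h vs control.

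**Figure D3:**
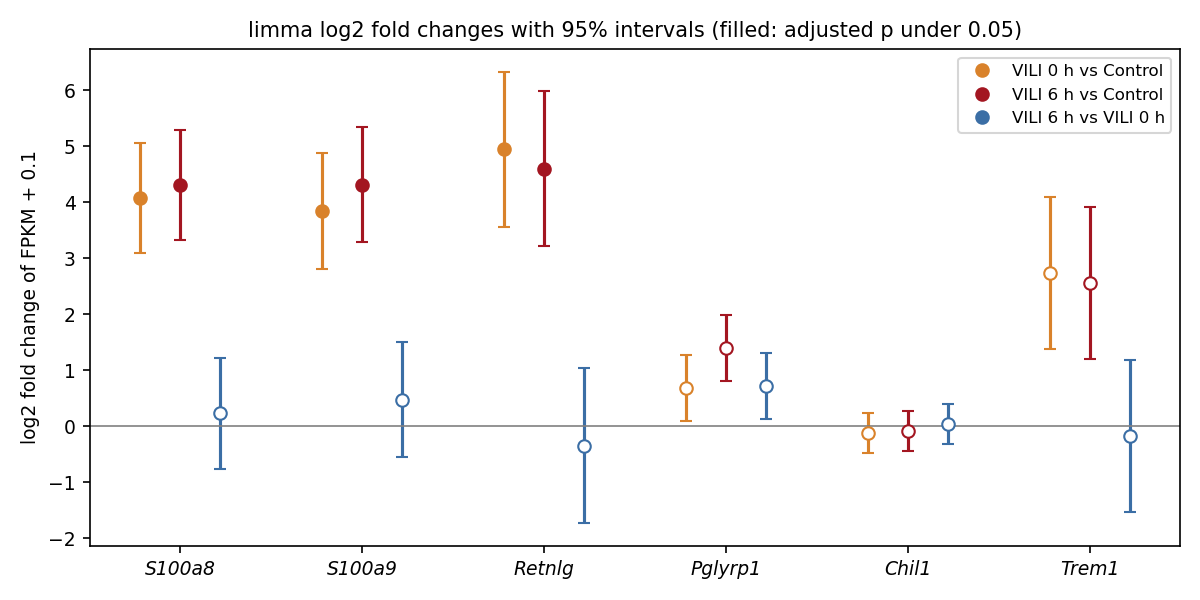
log2 fold change of FPKM + 0.1 for each gene in the 3 comparisons, with 95% intervals from limma, filled where the adjusted p was under 0.05. S100a8, S100a9 and Retnlg are filled against control at both times, between 3.84 and 4.95, and none is filled between the VILI groups.

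Between the VILI groups, 0 of the 6 genes were called and 0 did not overlap, against 6.25% of genes that were higher without overlap in VILI 6 h. In this comparison limma called 0 of 19378 genes at an adjusted p under 0.05 and 1938 at an unadjusted P under 0.05. The log2 fold change was 0.23 for S100a8 (95% interval -0.75 to 1.21), 0.47 for S100a9 (-0.56 to 1.502) and -0.35 for Retnlg (-1.73 to 1.04). These intervals still allow a change of more than 1 log2 unit, so the calprotectin genes are not shown to be level between the times. Pglyrp1 was the only member with an unadjusted P under 0.05, at 0.72 (limma, adjusted p = 0.416), with 5.06% of genes higher at that threshold. Its value was 0.38 without VILI 6 h replicate 3 (limma, adjusted p = 0.515). Without VILI 6 h replicate 1 there were 3 such members (S100a9, Retnlg and Pglyrp1), with 8.55% of genes higher at that threshold. Without VILI 0 h replicate 1 there were 0, with 4.76% of genes higher. Chil1 differed by 0.04 (95% interval -0.32 to 0.39) and Trem1 by -0.18 (-1.54 to 1.18). Without VILI 6 h replicate 1 the values of Retnlg and Trem1 turned to 0.54 and 0.48, and without VILI 6 h replicate 3 those of S100a8 and S100a9 turned to -0.35 and -0.06, and 0 of the 6 genes were called in either fit (0.959% of genes were called higher without replicate 1).

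VILI 6 h replicate 3 had the highest value of its group for all 6 genes, and replicate 1 the lowest for 4 of them (S100a8, S100a9, Retnlg and Trem1). The same libraries stood at the ends of the neutrophil marker list, where replicate 3 was highest for 17 of 24 genes and replicate 1 lowest for 15. Lists of other blood cells differed in this order. Replicate 3 of VILI 6 h was highest and replicate 1 lowest for 6 of 6 erythroid and 5 of 5 platelet genes. Replicate 1 was also lowest for 5 of 5 lymphocyte genes, but replicate 2 was highest for 4 of them. Of the 15 monocyte and macrophage genes, replicate 1 was highest for 8 and replicate 2 lowest for 9. In VILI 0 h, replicate 1 was lowest for 5 of the 6 genes and for 15 of the 24 neutrophil genes. The part of neutrophil or other blood cell content in these differences between mice was not tested.

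Relative to S100a8 in the same library, Pglyrp1, Chil1 and Trem1 separated from control at both times. Retnlg did so only in VILI 0 h, and S100a9 at neither time. The log2 ratio to S100a8 differed from control by -3.39 (VILI 0 h) and -2.90 (VILI 6 h) for Pglyrp1, by -4.199 and -4.39 for Chil1 and by -1.34 and -1.75 for Trem1, each without overlap of the groups (exact permutation p = 0.1 each, the smallest possible). S100a8 itself rose by a log2 of 4.08 and 4.30, so a gene with no change had to fall by about that amount. The ratio of Chil1 is therefore no separate result. The 15 ratio tests were not adjusted, since none can pass a threshold of 0.05. As a second reference, chosen after the values were seen, Csf3r, the receptor for the granulocyte growth factor G-CSF, measured 7.47, 7.09 and 6.29 FPKM in control, 23.7, 33.4 and 57.1 FPKM in VILI 0 h and 36.8, 24.7 and 27.9 FPKM in VILI 6 h. Unlike the calprotectin genes, it was highest in replicate 1 within VILI 6 h. S100a8 was higher relative to Csf3r by 1.73 and 2.24 log2 units than in control, S100a9 by 1.498 and 2.25 and Retnlg by 2.60 and 2.53 (exact permutation p = 0.1 each, no overlap). The size of these differences depends on the reference chosen. Cxcr2 rose by a log2 of 3.57 and 3.66 vs control and Mmp8 by 4.48 and 4.55. The log2 fold changes of S100a8 and S100a9 lay between those of Cxcr2 and Mmp8 at both times, and those of Retnlg lay above both. Ratios to Cxcr2 and Mmp8 were not tested. Trem1 relative to Csf3r differed by 0.39 and 0.49 with overlapping groups (exact permutation p = 0.2 and 0.7), and its log2 ratios in VILI 6 h were -4.34, -2.50 and -1.23 in replicates 1 to 3. Chil1 differed by -2.47 and -2.16 (exact permutation p = 0.1 each, no overlap). Pglyrp1 relative to Csf3r differed by -1.66 in VILI 0 h (exact permutation p = 0.1, no overlap) and overlapped control in VILI 6 h (exact permutation p = 0.3).

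**Figure D4:**
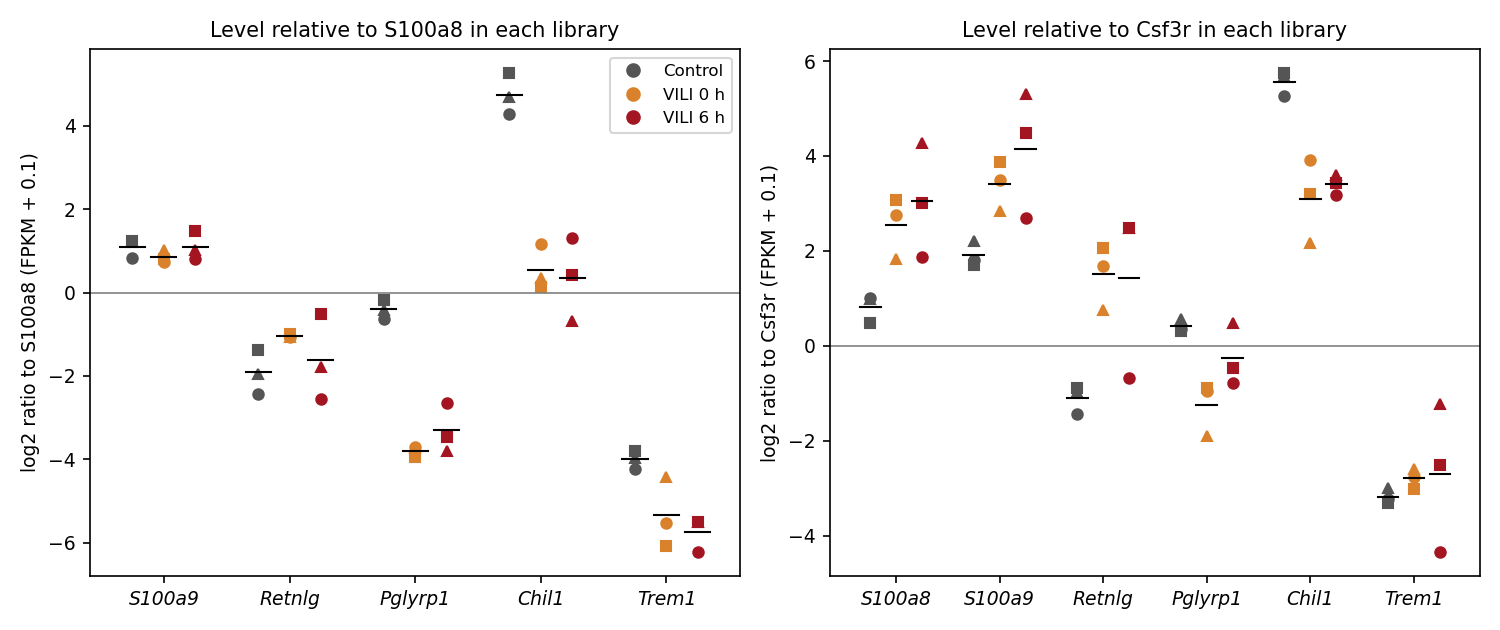
log2 ratio of FPKM + 0.1 of each gene to S100a8 (left) and to Csf3r (right) in the same library, with circle, square and triangle for replicates 1, 2 and 3 and a line at the group mean. The S100a9 to S100a8 ratio stays near 1 log2 unit in all groups, and Chil1 drops from 4.74 in control to 0.55 and 0.35 in the VILI groups against S100a8.

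The neutrophil marker list moved in the same direction as the 5 genes. Of its 24 genes 22 were tested, and Mpo and Elane, which encode enzymes of the primary granules made in marrow precursors, stayed below the filter. All 22 had a positive log2 fold change at both times, with a median of 1.67 in VILI 0 h and 2.58 in VILI 6 h vs control. An adjusted p under 0.05 was reached by 6 (Cxcr2, Clec4d, Stfa2l1, Clec4e, Mmp9 and Csf3r) and by 10 (those and Mmp8, Ly6g, Cd177 and Hdc). Over all genes, 0.206% and 0.449% were called higher. Il1r2, the decoy receptor for interleukin 1, had the largest log2 fold change in the list, 5.50 and 5.58 (limma, adjusted p = 0.0725 and 0.0587). Itgb2, the beta 2 integrin of all leukocytes, had the smallest, 0.41 and 0.68 (limma, adjusted p = 0.268 and 0.0901). The log2 changes of S100a8, S100a9 and Retnlg thus lay above the list median at both times, those of Pglyrp1 and Chil1 below it, and that of Trem1 above it in VILI 0 h and at 2.56 against 2.58 in VILI 6 h.

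Genes for the receptors of calprotectin were not called. In the receptor list of 7 genes (Tlr4 and its partners, Ager, Cd36, Bsg and Myd88), 0 had an adjusted p under 0.05 by limma. At an unadjusted P under 0.05, 3 were higher in VILI 0 h and 2 in VILI 6 h, against 6.81% and 8.17% of all genes. The list median was 0.28 and 0.16. Ager stayed between 529 and 791 FPKM in all 9 libraries and Tlr4 between 10.6 and 17.1 FPKM, with overlapping groups. Myd88, the adaptor of Toll-like receptors, measured 14.3, 14.5 and 14.7 FPKM in control, 19.2, 24.3 and 18.1 FPKM in VILI 0 h and 22.9, 29.0 and 42.2 FPKM in VILI 6 h. Neither VILI group overlapped control, with log2 fold changes of 0.49 and 1.06 (limma, adjusted p = 0.275 and 0.0564). Cd36, a scavenger receptor of endothelium and macrophages, had the highest value in VILI 0 h, 0.65 (limma, adjusted p = 0.114). Cd14, the lipopolysaccharide co-receptor, had the highest in VILI 6 h, 1.51 (limma, adjusted p = 0.228). Replicate 3 measured 152 FPKM of Cd14, against 21.9 and 20.6 FPKM in replicates 1 and 2 and 13.9 to 14.9 FPKM in control.

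For TREM1 signalling, 12 genes of the receptor family and its pathway gave medians of 0.14 and 0.52, and limma called 0 at an adjusted p under 0.05. At an unadjusted P under 0.05, 4 were higher and 1 lower in VILI 0 h, and 6 were higher in VILI 6 h. Over all genes 6.81% and 8.17% were higher and 9.35% and 12.2% lower at this threshold. Trem3, a mouse relative of Trem1 that also pairs with DAP12, was highest at both times: it measured 0.992, 0.780 and 0.715 FPKM in control, 1.24, 4.07 and 3.24 FPKM in VILI 0 h and 2.86, 2.56 and 5.43 FPKM in VILI 6 h. Its groups did not overlap control, with log2 fold changes of 1.52 and 1.93 (limma, adjusted p = 0.134 and 0.0723). Tyrobp, the adaptor, showed 0.81 and 0.84 (limma, adjusted p = 0.0793 and 0.0641), also without overlap. Lat2, an adaptor of immune receptor signalling, was lowest, at -0.48 and -0.13 (limma, adjusted p = 0.202 and 0.663).

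Family relatives of the 6 genes were not called. Of 14 other S100 genes, 13 were tested, with medians of 0.15 and 0.12, and limma called 0 at an adjusted p under 0.05. At an unadjusted P under 0.05, 3 and 4 were higher, against 6.81% and 8.17% of all genes. S100a4, a calcium-binding protein of motile cells and macrophages, was highest in VILI 6 h, at 0.9996 (limma, adjusted p = 0.191), with 80.3 FPKM in replicate 1 and 30.4 and 43.5 FPKM in replicates 2 and 3, and was thus highest where S100a8 was lowest. S100z was highest in VILI 0 h, at 1.70 (limma, adjusted p = 0.151), but was at or below 0.448 FPKM in all libraries. Of 10 other resistin-like, chitinase-like and peptidoglycan recognition genes, 6 were tested, with medians of -0.03 and 0.22, and limma called 0 at either threshold. Chil3, the chitinase-like protein Ym1 of mouse macrophages, was highest at both times, at 0.74 and 0.74 (limma, adjusted p = 0.398 and 0.313), with 528 FPKM in VILI 6 h replicate 1 and 142 and 221 FPKM in replicates 2 and 3.

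Markers of other lung and blood cells are given beside these results, and their part in them was not tested. Monocyte and macrophage genes (15) had medians of 0.39 and 0.27, with 4 higher at an unadjusted P under 0.05 at each time and 0 called by limma after adjustment, and summed to 189 to 223 FPKM in control, 229 to 338 FPKM in VILI 0 h and 229 to 287 FPKM in VILI 6 h. The alveolar type 2 (11 genes, medians 0.11 and 0.05), club and airway secretory (7 genes, 0.10 and 0.16) and endothelial lists (10 genes, 0.06 and -0.21) held 0 genes called by limma. In VILI 6 h, 4 of the 10 endothelial genes, 2 alveolar type 2 genes and 1 club gene were lower at an unadjusted P under 0.05, and 1 club gene was higher. In VILI 0 h, 2 alveolar type 2 genes, 1 club gene and 1 endothelial gene were higher and 1 endothelial gene was lower. Over all genes, 6.81% in VILI 0 h and 8.17% in VILI 6 h were higher at this threshold, and 9.35% and 12.2% were lower. Alveolar type 2 genes summed to 14352 to 15695 FPKM in control, 14371 to 16794 FPKM in VILI 0 h and 13878 to 14449 FPKM in VILI 6 h. Neutrophil genes summed to 145 to 168 FPKM, 348 to 508 FPKM and 420 to 1559.5 FPKM, so that their ranges did not overlap control. The sums of monocyte and macrophage genes did not overlap control, but their mean log2(FPKM + 0.1) did. It ran from 3.06 to 3.32 in control, 3.17 to 3.87 in VILI 0 h and 3.24 to 3.71 in VILI 6 h. That mean did not overlap control for the neutrophil genes. In VILI 0 h the sums of club and airway secretory genes did not overlap control, at 30946 to 34261 FPKM against 26069 to 28568 FPKM. Those of erythroid genes did not either, at 4918.3 to 5420.3 FPKM against 3226 to 4184.5 FPKM. In VILI 6 h lymphocyte genes summed to 9.28 to 29.2 FPKM, below the 32.3 to 43.5 FPKM of control. Erythroid genes had medians of 0.53 and -0.93, platelet genes 0.26 and 0.60 and lymphocyte genes -0.45 and -1.16. Of the erythroid, platelet and lymphocyte genes limma called 0, and at an unadjusted P under 0.05 1 lymphocyte gene was lower in VILI 0 h and 2 in VILI 6 h.

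**Figure D5:**
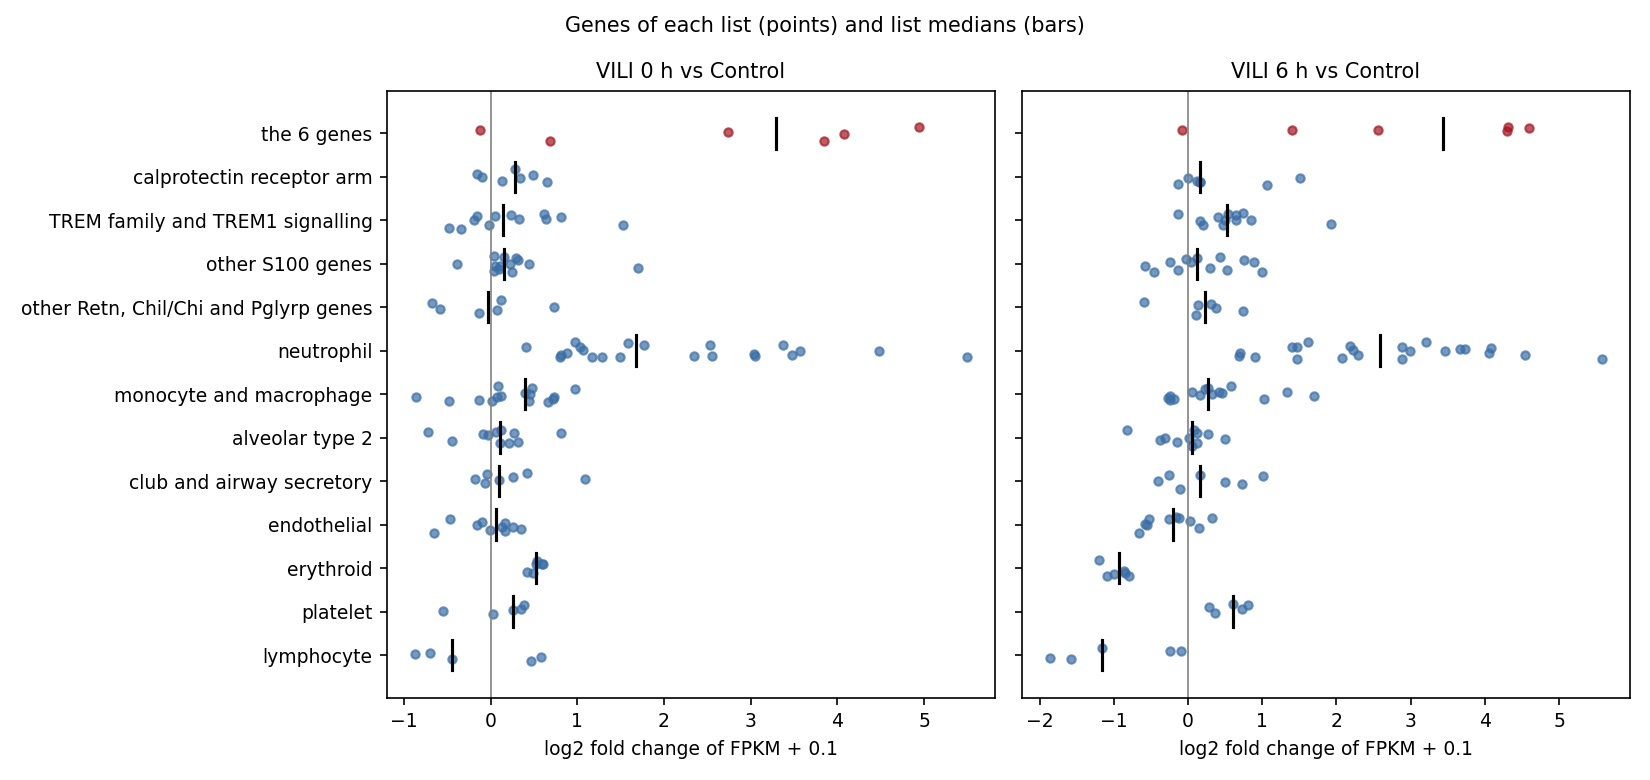
log2 fold change of FPKM + 0.1 of each tested gene (points) in the 6 genes and in each list, with a bar at the list median, for VILI 0 h (left) and VILI 6 h (right) vs control, on separate horizontal scales. The medians of the 6 genes (3.29 and 3.43) and of the neutrophil list (1.67 and 2.58) stand to the right of those of the other lists, which run from -0.45 to 0.53 and from -1.16 to 0.60.

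Assembled loci on the opposite strand overlapped 3 of the genes. They reached at most 0.811 FPKM at S100a8, 0.975 FPKM at S100a9 and 0.548 FPKM at Chil1, or at most 0.408% of the sense gene in the same library. Those at S100a8 and S100a9 were listed at 0 in all 3 control libraries. The sample records and the study's methods name different library kits, so whether strand was kept is not settled here and these reads cannot be told apart from those of the sense genes.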

How the data were processed

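Lung RNA of 9 mice, 3 per group, was measured. The table deposited by the authors holds FPKM per transcript, and their processing notes name Bowtie2 2.0.6, TopHat2 2.0.9, Cuffdiff 2.1.1 and GRCm38. Assembled loci were included. Read counts were not used here, so precision rests on the spread of 3 mice, and FPKM of similar or overlapping rows share reads.

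FPKM was summed over the rows of each gene. Of 23713 Ensembl gene IDs, 23503 matched GENCODE M21. A linear model of limma 3.58.1 (R 4.3.3, moderated with a trend) was fitted to log2(FPKM + 0.1) of 19378 genes with a mean of at least 0.1 FPKM, in 1 fit of the 9 libraries, with Benjamini-Hochberg adjustment over all of them. Fold changes are on that scale, which understates those of low genes. Exact permutation tests were two-sided. The procedure was also run on simulated data, but no result of that run is given here and none of the values rests on it. Python 3.11.15, pandas 2.3.3, scipy 1.17.1 and matplotlib 3.10.9 were also used. All 6 symbols matched the RefSeq promoter table.

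The members and lists were chosen with earlier results of these data known. Genes named besides the 6 were the highest, lowest and called genes of each list and the 3 closest profiles per gene, 1 of which is not reported here. Named outside that rule, after their values were seen, were Tlr4, Ager, Myd88, Tyrobp, Mpo, Elane, Ngp, Camp and Ltf. Alternatives were pseudocounts of 0.01 and 1, a mean of at least 1 FPKM, no filter, a replicate block, no trend in the moderation, centring on library medians, fits of 6 libraries, the highest row per gene and each library left out. Ratios to Csf3r were added after the values were seen.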

Additional observations from a re-analysis of the deposited data

How the results depend on the processing

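Against control, S100a8, S100a9, Retnlg, Pglyrp1 and Trem1 kept their direction in all 18 alternatives at both times. In these, 4 or 5 of the 6 genes in VILI 0 h and 5 in VILI 6 h had an unadjusted P under 0.05. Over all genes, 916 to 1944 were higher at that threshold in VILI 0 h and 1085 to 2497 in VILI 6 h, of 14108 to 23374 tested. Adjusted calls were less stable. For VILI 0 h vs control (55 genes called), limma called 15 genes with a pseudocount of 1, 1 with no filter, 20 without a trend, 1714 with only the 6 libraries compared, 7 with the highest row per gene and 1 to 1344 with a library left out. Of the 6 genes (3 called), 0 were called with no filter, 1 without a trend, 5 with only the 6 libraries, 1 with the highest row and 0 to 4 with a library left out. For VILI 6 h vs control (136 genes called), the counts were 75 with no filter, 41 without a trend, 38 with only the 6 libraries, 11 with the highest row and 1 to 4526 with a library left out; 2 of the 6 genes (3 called) were called without a trend, with only the 6 libraries and with the highest row, and 0 to 5 with a library left out. The counts of 1344 and 4526 came without VILI 6 h replicate 1. For VILI 6 h vs VILI 0 h (0 called by limma, 1938 at an unadjusted P under 0.05), 2 genes were called without a trend, 1 with only the 6 libraries and 0 to 362 with a library left out. The causes were not tested.

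With a replicate block, limma called 10, 43 and 0 genes in the 3 comparisons and 3, 3 and 0 of the 6 genes. Same-numbered libraries did not deviate together (correlations of -0.27 to 0.04), so the numbers were not taken to pair the mice.

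Centring moved the share of higher genes among those with an unadjusted P under 0.05 from 42.1% to 61.2% in VILI 0 h and from 40.1% to 58.1% in VILI 6 h vs control. Values near 0 changed sign. Chil1 in VILI 0 h vs control ran from -0.2405 to 0.001022 with a library left out, the highest without VILI 0 h replicate 3. In VILI 6 h vs control it ran from -0.1828 to 0.02317, positive without control replicate 2 or VILI 6 h replicate 2, and was 0.03845 with centred libraries. Between the VILI groups and with a library left out, S100a8 ran from -0.3476 to 0.6551, S100a9 from -0.05995 to 1.043, Retnlg from -0.8371 to 0.5438, Pglyrp1 from 0.3827 to 0.9498, Chil1 from -0.08958 to 0.1519 and Trem1 from -0.8737 to 0.4813. VILI 6 h replicate 3 gave the lowest of S100a8, S100a9, Retnlg and Trem1 when left out, and VILI 6 h replicate 1 the highest. With the highest row per gene, Chil1 became -0.20 and Trem1 0.006885. The log2 ratio of Trem1 to S100a8 differed from control by -2.1 and -2.44 with a pseudocount of 1.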

Other observations

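Ngp, the neutrophilic granule protein, measured 0.568, 1.14 and 0.494 FPKM in control, 5.14, 4.39 and 3.96 FPKM in VILI 0 h and 0.677, 24.7 and 118 FPKM in VILI 6 h. Camp, the precursor of the antimicrobial peptide CRAMP, reached 17.1 FPKM in VILI 6 h replicate 3 and was between 0 and 1.82 FPKM in the other 8 libraries. In VILI 6 h replicate 1, Ngp was thus within the range of control while S100a8 was at 136 FPKM and Csf3r at 36.8 FPKM. Ltf, which encodes lactoferrin of the same granules, had another order, with 27.2, 14.3 and 50.1 FPKM in VILI 6 h and 3.57 to 8.41 FPKM in control. Neither Ngp nor Camp was called (limma, adjusted p = 0.17 for Ngp and 0.259 for Camp in VILI 6 h vs control), and all 3 genes were singled out after their values were seen.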
